A study of Mus musculus with 6 samples.

Results

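The genes described here encode subunits of voltage-gated calcium channels, and were picked from the gene count table by symbol. The 10 members were 6 pore-forming subunits (*Cacna1a*, *Cacna1b*, *Cacna1c*, *Cacna1d*, *Cacna1e*, and *Cacna1h*), 3 α2δ subunits (*Cacna2d1*, *Cacna2d2*, and *Cacna2d3*), and the β subunit *Cacnb4*. All 10 were found among the 48440 rows of the table, and all 10 passed the filter on low counts together with 18583 other genes (18593 tested). RNA was taken from dorsal root ganglia (DRGs) of wild-type male mice whose unilateral L3/4 DRGs had been microinjected with adeno-associated virus. In 3 libraries, AAV5-Gfp replicates 1 to 3, the DRGs received virus expressing green fluorescent protein (*Gfp* DRGs). The other 3, AAV5-NIS V1 and V2 replicates 1 to 3, received mixed viruses expressing both transcript variants of *NIS-lncRNA*, a long noncoding RNA that rises after nerve injury (*NIS* DRGs). Tissue was collected 5 weeks after microinjection according to the deposited design text, which also gives the comparison at 4 weeks. The study used CD1 mice for microinjection of these viruses, and the labels of these libraries give no strain. Mouse age, the number of animals behind a library, and the promoter of the viral transcripts are not given in the sources used here, so that p-values measure the spread between these libraries. Each group received its own viruses, so that virus preparation and transcript cannot be told apart. The level of *NIS-lncRNA* itself was not analysed here. No row of the table bears that name, and rows for genes at its locus were not examined.

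Voltage-gated calcium channels open on depolarization and let calcium into the neuron, where it triggers transmitter release, changes excitability, and signals to the nucleus. The α1 subunit forms the pore and sets the channel type, whereas β subunits bind its cytoplasmic side and α2δ subunits bind from outside, and both raise the number of channels at the membrane. The N- and P/Q-type channels drive release from the central terminals of sensory neurons, L-type channels carry long-lasting somatic currents, and the T-type channel Cav3.2 opens near the resting potential. Gabapentin and pregabalin, which are used against neuropathic pain, bind α2δ1 and α2δ2 but not α2δ3, and α2δ1 is known to rise in sensory neurons after peripheral nerve injury.

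In *NIS* DRGs, 7 of the 10 members fell, 0 rose, and 3 did not pass the test (quasi-likelihood test in edgeR, Benjamini-Hochberg adjusted p under 0.05 over all genes tested). The genes that fell were *Cacna1a*, *Cacna1b*, *Cacna1c*, *Cacna2d1*, *Cacna2d2*, *Cacna2d3*, and *Cacnb4*, by between 29.3% (*Cacna2d1*) and 49.2% (*Cacna2d2*). Among all genes tested, 5.27% were lower and 10.1% were higher by the same rule. The median log2 fold change was -0.62 over the 10 members and -0.0003 over all genes tested. For 9 of the 10 members, every *NIS* library lay below every *Gfp* library, as was seen for 22% of all genes tested. At an unadjusted p under 0.05, 8 members were lower and 0 were higher, beside 15.5% of all genes tested that were lower. Leaving out 1 library changed the number of calls: 1 remained without *Gfp* replicate 1 (*Cacna1a*), 0 without *Gfp* replicate 2 or replicate 3, and 2 without *NIS* replicate 2 (*Cacna2d2* and *Cacna2d3*). Over all genes, the same 4 fits called 59, 0, 0, and 150 genes lower. The median of the members stayed between -0.71 and -0.50 across the 6 fits that each left out 1 library.

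The DRGs are mixtures of neurons, glia, and other cells, and CPM are relative to all RNA in a library. In such bulk tissue fewer neurons, less RNA per neuron, and more RNA from other cells cannot be told apart. Of 15 pan-neuronal genes, all 15 had a negative log2 fold change in *NIS* DRGs with TMM scaling. Among them 3 fell (*Rbfox3*, *Syt1*, and *Map2*), 12 did not pass, and the median log2 fold change was -0.43. Their summed level was 11544, 10832, and 11789 CPM (counts scaled to a common library size with edgeR's TMM method) in *Gfp* replicates 1 to 3, and 6976, 9625, and 10135 CPM in *NIS* replicates 1 to 3. *NIS* replicate 1 was thus the lowest of the 6 libraries, and the *NIS* libraries lay below the *Gfp* libraries. Macrophage genes moved the opposite way, with 7 of 9 higher and summed levels from 180 to 250 CPM in *Gfp* and from 507 to 1410 CPM in *NIS* DRGs. The B cell genes (5 of 5 higher) summed to between 4.73 and 10.8 CPM in *Gfp* and between 208 and 284 CPM in *NIS* DRGs, and the T cell genes (6 of 7 higher) to between 3.69 and 9.64 CPM and between 35.5 and 77.2 CPM. Satellite glia genes (median -0.03, 1 of 7 higher) and Schwann cell genes (median 0.16, 0 of 7 called) overlapped between groups in their summed level. Of 5 genes each, 1 endothelial and 1 fibroblast gene were higher. With TMM scaling 10.1% of all genes tested were higher and 5.27% were lower. Of a list of 5 genes taken as markers of spinal cord glia 2 were tested, at a summed 9.96 to 14.3 CPM over the 6 libraries. These went opposite ways, with *Gfap* higher (log2 fold change 0.82) and *Aqp4* not called (-0.48). The cells from which their reads came were not tested. The part of this cell makeup in the calcium channel values was not tested. When libraries were scaled to the pan-neuronal genes instead of by TMM, 0 of the 10 members were called and their median was -0.18, while the median of all genes moved to 0.45. In that fit 0.0861% of all genes were called lower. At an unadjusted p under 0.05, 2 members and 0.818% of all genes were lower in it, and 99.3% of the calls over all genes were higher, against 65.6% with TMM.

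**Figure D1:**
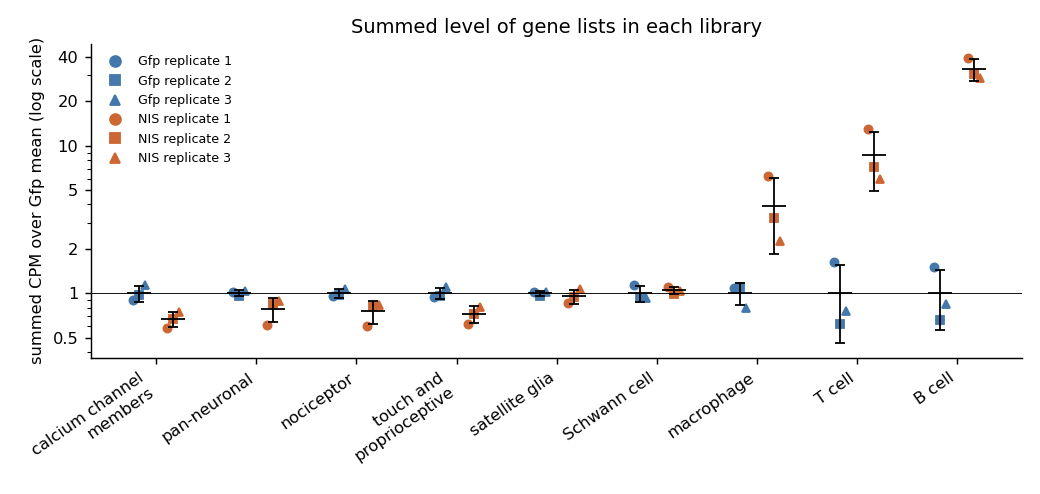
Summed TMM-normalized CPM of each gene list in each library, divided by the mean of the 3 *Gfp* libraries, on a log axis. Points are libraries and black bars are the mean ± SD of 3 libraries. The calcium channel members and the 3 neuronal lists lay lower in *NIS* DRGs, and macrophage, T cell, and B cell genes lay higher.

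The 3 α2δ members, which hold the gabapentinoid targets, fell, whereas *Cacna2d4*, the remaining α2δ gene, was at 1.56 ± 0.104 CPM in *Gfp* and 1.34 ± 0.177 CPM in *NIS* DRGs (SD, n = 3 each) and was not called (log2 change -0.22, adjusted p of 0.425 in edgeR). To show the sequence at the start of genes that fell together, the 250 bases upstream of each RefSeq start are given here 5′ to 3′ on the gene's strand, in lower case with every GC box (GGGCGG, either strand) in capitals. They lie in GRCm38.p6 at chr5:15934441-15934690 on the plus strand (*Cacna2d1*), chr9:107399630-107399879 on the plus strand (*Cacna2d2*), and chr14:29721865-29722114 on the minus strand (*Cacna2d3*). The *Cacna2d2* window lies inside the gene as GENCODE M21 annotates it, since the GENCODE start is upstream of the RefSeq start.
Cacna2d1: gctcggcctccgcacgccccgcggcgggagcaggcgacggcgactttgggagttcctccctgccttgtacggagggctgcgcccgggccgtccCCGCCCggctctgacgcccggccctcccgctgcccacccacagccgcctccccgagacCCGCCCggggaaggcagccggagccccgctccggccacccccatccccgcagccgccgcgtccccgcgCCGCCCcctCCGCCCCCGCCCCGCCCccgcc
Cacna2d2: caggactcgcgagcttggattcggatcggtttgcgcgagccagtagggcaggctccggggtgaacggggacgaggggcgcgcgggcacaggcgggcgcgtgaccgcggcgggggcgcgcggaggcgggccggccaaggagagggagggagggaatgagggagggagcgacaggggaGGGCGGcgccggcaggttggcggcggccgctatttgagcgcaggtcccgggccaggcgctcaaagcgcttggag
Cacna2d3: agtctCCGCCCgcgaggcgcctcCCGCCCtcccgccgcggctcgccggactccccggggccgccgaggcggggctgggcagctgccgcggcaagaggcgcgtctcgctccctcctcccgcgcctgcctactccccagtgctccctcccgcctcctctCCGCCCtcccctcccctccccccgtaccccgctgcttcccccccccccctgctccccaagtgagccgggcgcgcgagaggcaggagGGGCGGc
The GC content was 82.4%, 74.4%, and 80% in that order, and the windows held 6, 1, and 4 GC boxes, where overlapping matches count separately. A GC box was found in 32.7% of all 32851 upstream windows of this length. Across the members, 13 windows of 8 genes were found in RefSeq, and 7 of the 13 held it. None of the 3 printed windows held a CCAAT box (CCAAT, in 33.8% of all windows) or a TATA box (TATAAA, 12.4%). Nor did they hold a cAMP response element (TGACGTCA, 1.55%) or CCGGAA (12%), a longer form of the ETS factor site. Each was searched on both strands. The shorter ETS core GGAA was not counted over all windows, and each of the 3 holds it on at least 1 strand.

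*Cacna2d1* encodes α2δ1, the main target of gabapentin and pregabalin in sensory neurons. Its level was 308, 339, and 383 CPM in *Gfp* replicates 1, 2, and 3, and 209, 262, and 257 CPM in *NIS* replicates 1, 2, and 3. The groups did not overlap, and the smallest gap was between *Gfp* replicate 1 and *NIS* replicate 2. The fitted log2 change was -0.50 ± 0.12 (SE), with an adjusted p of 0.0361 in edgeR, which was the smallest fall of the 7. The gene occupies chr5:15934691-16374511 (GRCm38, plus strand) and was the most abundant member per kilobase of exon.

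*Cacna2d2* encodes α2δ2, the other subunit that binds gabapentinoids. Its level was 53.3, 59.4, and 81.4 CPM in *Gfp* replicates 1, 2, and 3, and 25.9, 35.7, and 36.9 CPM in *NIS* replicates 1, 2, and 3. The highest *NIS* library was well below the lowest *Gfp* library. The change of -0.98 ± 0.19 (SE) on the log2 scale, with an adjusted p of 0.0225 in edgeR, was the largest fall among the members, and 0.844% of all genes tested had a lower value. The gene occupies chr9:107399612-107529343 (GRCm38, plus strand).

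*Cacna2d3* encodes α2δ3, which has no high-affinity gabapentin site and whose loss impairs heat avoidance in flies and mice. It had 142, 156, and 177 CPM in *Gfp* replicates 1, 2, and 3, and 82.0, 99.3, and 111 CPM in *NIS* replicates 1, 2, and 3. No library of one group reached the other. The fitted log2 change was -0.70 ± 0.13 (SE), with an adjusted p of 0.0191 in edgeR. The gene spans 817 kb at chr14:28904943-29721864 (GRCm38, minus strand), and is the longest of the 10.

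The fitted falls of the 3 α2δ genes ran from -0.50 to -0.98. Within each library, ratios between the genes are free of the scaling between libraries. The log2 ratio of *Cacna2d1* to *Cacna2d2*, in counts, was 2.53, 2.51, and 2.23 in *Gfp* and 3.01, 2.87, and 2.80 in *NIS* replicates 1 to 3, a difference of 0.47. That of *Cacna2d1* to *Cacna2d3* differed by 0.20, with an SD of 0.0066 among the *Gfp* and 0.095 among the *NIS* libraries. The ratio of *Cacna2d3* to *Cacna2d2* differed by 0.27. In all 3 pairs every *NIS* library lay above every *Gfp* library, and the exact two-sided permutation test gave p = 0.1 for each (0.1 adjusted over the 3 pairs), the smallest that 3 libraries against 3 allow. The 3 pairs are not independent, since each log2 ratio follows from the others. As a share of the 3 genes, in CPM per kilobase of merged exons, *Cacna2d1* was 51.3% ± 0.940 (SD, n = 3) in *Gfp* and 56.2% ± 1.52 (SD, n = 3) in *NIS* DRGs. *Cacna2d2* was 15.0% ± 1.5 (SD, n = 3) and 11.8% ± 0.652 (SD, n = 3), again without overlap. *Cacna2d3* was 33.7% ± 0.568 (SD, n = 3) and 32.0% ± 1.29 (SD, n = 3), and its libraries overlapped.

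**Figure D2:**
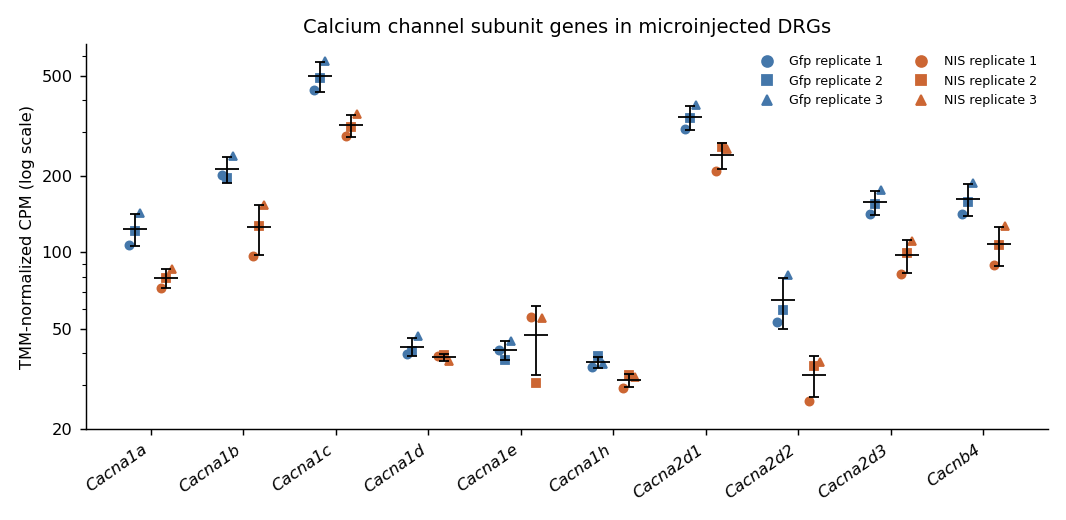
TMM-normalized CPM of the 10 members in each library, on a log axis. Points are libraries, and black bars are the mean ± SD of 3 libraries. For 9 genes all *NIS* libraries lay below all *Gfp* libraries, and *Cacna1e* overlapped, with *NIS* replicate 2 at 30.4 CPM below the *Gfp* range and the other *NIS* libraries above it.

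Of the pore-forming subunits, those of the N-type, P/Q-type, and the Cav1.2 L-type channel fell. *Cacna1b* encodes Cav2.2, the N-type channel that releases transmitter from nociceptor terminals and is blocked by ziconotide. It had 202, 197, and 242 CPM in *Gfp* replicates 1, 2, and 3, and 97.0, 127, and 154 CPM in *NIS* replicates 1, 2, and 3. *NIS* replicate 1 was at less than the level of any other library, and the groups did not overlap. The fitted log2 change was -0.76 ± 0.17 (SE), with an adjusted p of 0.0288 in edgeR.

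*Cacna1a* encodes Cav2.1, the P/Q-type channel. It had 107, 121, and 144 CPM in *Gfp* replicates 1, 2, and 3, and 72.5, 79.6, and 86.2 CPM in *NIS* replicates 1, 2, and 3. The fitted log2 change was -0.64 ± 0.12 (SE), with an adjusted p of 0.0191 in edgeR. This was the 1 member still called without *Gfp* replicate 1 (adjusted p = 0.0448, edgeR's test).

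*Cacna1c* encodes Cav1.2, an L-type channel of neurons and of smooth and cardiac muscle. With 438, 489, and 571 CPM in *Gfp* replicates 1, 2, and 3, and 287, 314, and 352 CPM in *NIS* replicates 1, 2, and 3, it held the most reads of the 10 members. The fitted log2 change was -0.65 ± 0.12 (SE), with an adjusted p of 0.0217 in edgeR. Genes of smooth muscle and pericytes, which also express it, had a median log2 fold change of 0.06 and 0 of 5 called. The cells from which the *Cacna1c* reads came were not tested.

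*Cacna1d*, *Cacna1h*, and *Cacna1e* did not pass the test. *Cacna1d*, which encodes the L-type channel Cav1.3 that opens at lower voltages than Cav1.2, had 39.8, 40.9, and 46.6 CPM in *Gfp* and 39.1, 39.4, and 37.2 CPM in *NIS* replicates 1 to 3. The groups were separated by less than 1 CPM, and the log2 change was -0.14 ± 0.079 (SE), with an adjusted p of 0.258 in edgeR. *Cacna1h*, which encodes the T-type channel Cav3.2 of nociceptors and of D-hair touch neurons, had 35.3, 39.0, and 36.2 CPM in *Gfp* and 29.2, 32.7, and 32.2 CPM in *NIS* replicates 1 to 3. Here too the groups did not overlap (log2 change -0.23 ± 0.076, SE, with an adjusted p of 0.0773 in edgeR). With pan-neuronal scaling both values were above 0, at 0.32 for *Cacna1d* and 0.21 for *Cacna1h*. *Cacna1e*, which encodes the R-type channel Cav2.3, had 41.1, 37.5, and 44.8 CPM in *Gfp* and 55.8, 30.4, and 54.9 CPM in *NIS* replicates 1 to 3. Relative to its mean, it had the widest spread of the members among *NIS* libraries, and its log2 change was 0.19 ± 0.22 (SE), with an adjusted p of 0.555 in edgeR. Over the 6 fits that each left out 1 library, the log2 change of *Cacna1e* ran from 0.06 to 0.44 and was called in 1. That was the fit without *NIS* replicate 2 (0.44, adjusted p of 0.0483 in edgeR), which called 1020 of 18902 genes higher.

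*Cacnb4* encodes β4, which binds the intracellular loop of high-voltage-activated pores. It had 141, 159, and 187 CPM in *Gfp* replicates 1, 2, and 3, and 88.9, 107, and 127 CPM in *NIS* replicates 1, 2, and 3. *NIS* replicate 3 came closest to the *Gfp* range without entering it. The fitted log2 change was -0.59 ± 0.15 (SE), with an adjusted p of 0.0406 in edgeR, the highest adjusted p of the 7.

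**Figure D3:**
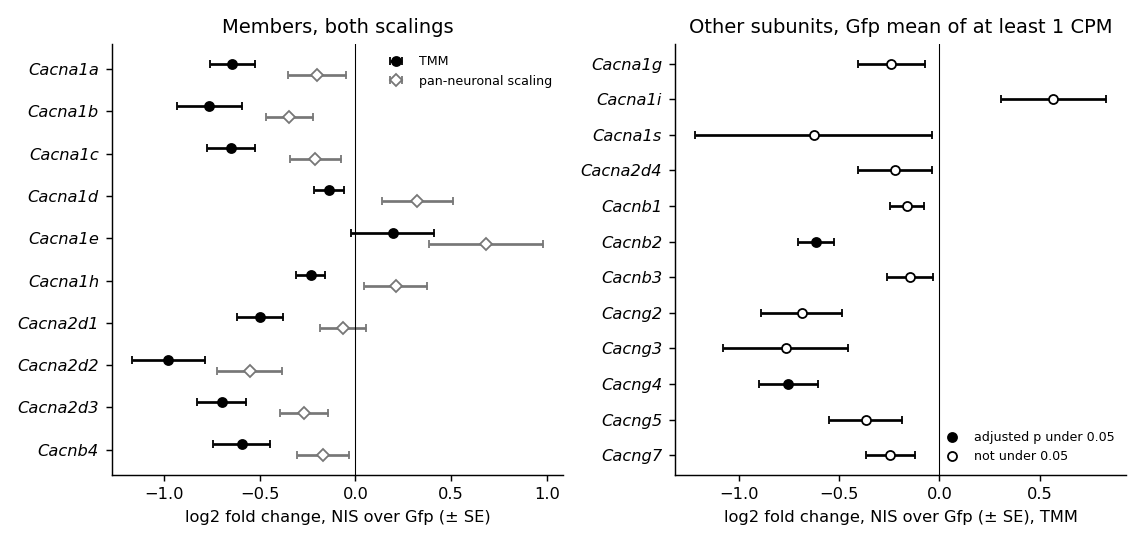
Log2 fold changes of *NIS* over *Gfp* DRGs with standard errors (bars) from edgeR's fit to 6 libraries, for the 10 members (left) and for the other channel subunits with a *Gfp* mean of at least 1 CPM (right). On the left, filled circles are TMM and open diamonds are scaling to 15 pan-neuronal genes, which moved every member to the right and *Cacna1d* and *Cacna1h* above 0. On the right, *Cacnb2* and *Cacng4* are filled as called.

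For the order of the members, levels were taken as CPM per kilobase of merged exons. In *Gfp* DRGs the order was *Cacna2d1* (27.6 ± 3.03, SD, n = 3), *Cacna1c* (23.6 ± 3.17), *Cacna1b* (21.5 ± 2.46), *Cacna2d3* (18.1 ± 1.99), *Cacnb4* (18.1 ± 2.59), *Cacna1a* (10.9 ± 1.59), *Cacna2d2* (8.14 ± 1.86), *Cacna1h* (3.77 ± 0.198), *Cacna1d* (3.36 ± 0.286), and *Cacna1e* (1.63 ± 0.145). The ranges of neighbours in this order overlapped, except that the lowest *Gfp* library of *Cacnb4* lay above the highest of *Cacna1a*, and likewise *Cacna2d2* above *Cacna1h* and *Cacna1d* above *Cacna1e*. In *NIS* DRGs the order was the same except that *Cacnb4* (12 ± 2.1) and *Cacna2d3* (11.2 ± 1.66) changed places, within their spread. The 6 members with the highest levels and the *Cacna2d2* gene were the 7 that fell, and the 3 least abundant members were those that did not pass. The counting of intronic reads is not stated, and stranded total RNA libraries hold unspliced RNA. Per kilobase of the whole gene, *Cacna1b* came first and *Cacna2d3* eighth.

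Among the 6 pore-forming subunits, the 3 least abundant ones made up larger shares in *NIS* DRGs, by differences that exact tests of this size cannot call. *Cacna1d* made up 5.21% ± 0.159 (SD, n = 3) of their summed CPM per kilobase in *Gfp* and 7.23% ± 1.03 (SD, n = 3) in *NIS* DRGs. *Cacna1h* made up 5.88% ± 0.702 (SD, n = 3) and 7.55% ± 0.607 (SD, n = 3), and *Cacna1e* 2.53% ± 0.210 (SD, n = 3) and 4.40% ± 1.49 (SD, n = 3). For these 3 every *NIS* library was above every *Gfp* library, with p = 0.1 in the exact two-sided permutation test and 0.2 adjusted over 6 shares. *Cacna1b* went from 33.2% ± 1.37 (SD, n = 3) to 29.3% ± 3.32 (SD, n = 3), and *NIS* replicates 2 and 3, at 30.2% and 32.2%, were near or within the *Gfp* range of 31.8% to 34.5%, whereas replicate 1 was at 25.7%. *Cacna1c* (36.4% and 35.1%) and *Cacna1a* (16.8% and 16.3%) overlapped between groups. Such shares do not depend on the scaling between libraries. The 6 shares add up to the whole, so that lower shares of some genes raise those of others. Their 6 tests are therefore not independent of each other.

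**Figure D4:**
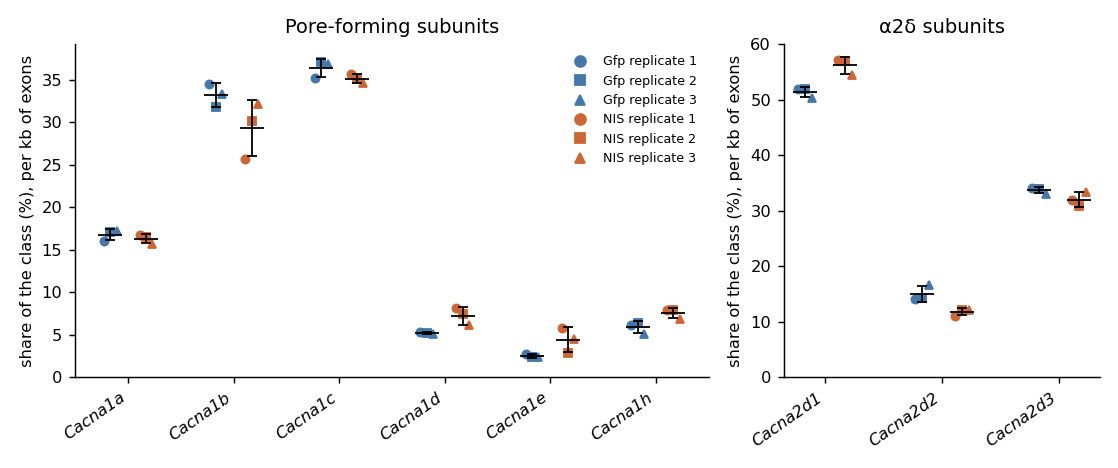
Share of each gene in the summed CPM per kilobase of merged exons of the 6 pore-forming members (left) and of the 3 α2δ members (right), in each library. Points are libraries and black bars are the mean ± SD of 3 libraries. *Cacna1d*, *Cacna1e*, *Cacna1h*, and *Cacna2d1* lay higher in all *NIS* libraries, and *Cacna2d2* lay lower.

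Of the other 16 genes for calcium channel subunits, 15 were tested and *Cacng6* was not, with 2 to 8 counts in each library. Of the 15, 2 fell, 0 rose, and 13 did not pass, with a median log2 fold change of -0.24. By the same rule 5.27% of all genes tested were lower and 10.1% were higher. *Cacnb2*, another β subunit, fell from 39.1 ± 3.97 to 25.5 ± 0.564 CPM (SD, n = 3 each), a log2 change of -0.62 ± 0.088 (SE) with an adjusted p of 0.0144 in edgeR. *Cacng4*, whose product accompanies glutamate receptors of the AMPA type as well, fell from 11.6 ± 1.98 to 6.87 ± 0.580 CPM (SD, n = 3 each), a log2 change of -0.75 ± 0.15 (SE). *Cacng2*, a relative of *Cacng4*, had the next smallest adjusted p (0.0588 in edgeR) and a log2 change of -0.69. The remaining β subunits *Cacnb1* (-0.16) and *Cacnb3* (-0.15, the most abundant of these 15 in CPM) and the T-type pores *Cacna1g* (-0.24) and *Cacna1i* (0.57) were not called. *Cacna1s* and *Cacng1*, the pore and γ subunit of skeletal muscle, varied most among *Gfp* libraries relative to their mean, and *Cacna1s* was at 0.837, 4.91, and 2.44 CPM in replicates 1 to 3. Skeletal muscle genes ran in the same order, at a summed 23.2, 375, and 108 CPM. In *NIS* replicates 1 to 3 they summed to 111, 39.95, and 8.54 CPM, and 0 of 6 were called.

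Over all genes tested, 5.27% were lower and 10.1% were higher. Of 22 genes for proteins that bind or regulate these channels, 4 were lower, 3 higher, and 15 not called. Among the lower genes were *Rimbp2* (log2 fold change -0.68), *Rims1* (-0.77), and *Stac* (-0.62). The first 2 encode proteins that tether calcium channels at release sites, and *Stac* encodes an adaptor of L-type channels. Higher were the thrombospondins *Thbs1* (0.50) and *Thbs2* (0.93), secreted proteins of a family that binds α2δ1, and *Gem* (0.95), a small GTPase that inhibits high-voltage-activated channels. *Thbs4*, another thrombospondin, which is known to rise in injured DRGs, was at 0.25 (adjusted p = 0.444, edgeR's test). The genes for uptake of gabapentinoids into cells were not called (0 of 3), and *Slc7a5* and *Slc3a2*, which together form the transporter LAT1, had log2 fold changes of 0.02 and 0.11. *Slc7a8*, which encodes the related transporter LAT2, was at -0.31 with an adjusted p of 0.0638 in edgeR, and every *NIS* library lay below every *Gfp* library.

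Genes for calcium stores, pumps, and exchangers were split, with 4 of 20 higher and 4 lower (median -0.02). The shares over all genes tested were 10.1% higher and 5.27% lower. The sodium-calcium exchanger *Slc8a3* (-0.48), the plasma membrane pump *Atp2b3* (-0.65), and the ryanodine receptors *Ryr2* (-0.63) and *Ryr3* (-0.63) fell. *Atp2a3* (1.64), a reticulum pump of blood cells and other tissues, *Slc8a1* (1.26), and the IP3 receptors *Itpr1* (0.64) and *Itpr2* (0.95) rose. Of 9 calcium-calmodulin kinases, *Camk2a* fell (-0.71) and the other 8 were not called.

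Other sensory neuron genes are given for comparison, beside 5.27% of all genes tested that were lower and 10.1% that were higher. Among 10 nociceptor genes, *Gfra2* fell (-0.48), the other 9 did not pass, and the median was -0.33. Among 10 genes of touch and proprioceptive neurons, *Ntrk3* (-0.61) and *Pvalb* (-0.51) fell and *Runx3* (1.60), which T cells also express, rose. Of 11 tested nerve injury genes, *Atf3* (0.78), *Ecel1* (1.07), and *Csf1* (0.58) rose, 0 fell, and 8 did not pass. Among these 8, *Adcyap1* (-0.28), *Gap43* (-0.26), and *Sox11* (-0.23) were the 3 with a negative value. The summed level of the list overlapped between groups, at 213 to 221 CPM in *Gfp* and 203 to 241 CPM in *NIS* DRGs.

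The share of genes called lower is given by genomic span, without a test. Of 581 tested genes spanning over 300 kb in GENCODE M21, 46.6% were called lower, as were 15.4% of 2018 genes of 100 to 300 kb and 2.35% of 15301 genes of up to 100 kb. Of the members, 3 of 5 over 300 kb, 4 of 4 from 100 to 300 kb, and 0 of 1 up to 100 kb (*Cacna1h*, 59.5 kb) were called lower. Across the 10 members, the Spearman correlation between span and log2 fold change was 0.16 and Pearson's r with the logarithm of the span 0.15, as a description of genes measured in the same libraries. Only 1 member spans up to 100 kb, so these correlations say little about genes of short span. *Cacna2d2* spans 130 kb, and *Cacna1d* and *Cacna1e* span 452 and 494 kb. In the pan-neuronal list, the 3 genes called lower spanned 422 kb (*Rbfox3*), 513 kb (*Syt1*), and 267 kb (*Map2*), and the 11 genes of up to 100 kb had 0 calls and a median of -0.35. The part of gene length in the members' values was not tested. Protein-coding genes overlap *Cacna1c* (*Dcp1b*), *Cacna1d* (*Chdh* and *Dcp1a*), *Cacna1h* (*Tpsg1*), and *Cacna2d3* (*Lrtm1*) on the opposite strand, and the use of strand in counting is not stated.

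The genes whose level followed *Cacna2d1* most closely over the 6 libraries were *2510009E07Rik* (Pearson's r 0.999, Spearman's rho 1), *Grm4* (0.999 and 1), *Stau2* (0.998 and 0.943), *March4* (0.998 and 0.943), and *AI314180* (0.997 and 1), among 11121 genes whose mean reached 3 on the log2 CPM scale. Of these, *Grm4* (log2 fold change -0.55), *March4* (-0.73), *Stau2* (-0.40), and *2510009E07Rik* (-0.42) fell as well, and *AI314180* (-0.14) was not called. The correlations are over TMM-scaled log2 CPM, share the difference between groups, and describe these 6 libraries only.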

How the data were processed

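The deposited values are raw counts of reads, keyed by gene symbol, 1 column for each of 6 stranded total RNA libraries (TruSeq), without normalization. GRCm38 and mm10 are the builds in the submitters' processing notes; the aligner, counter, and annotation are not given in the sources used here. Total counts ranged from 32618252 to 34764282, and in replicate comparisons chi-square per degree of freedom was at least 8.27, so that no libraries agreed within sampling noise.

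After filterByExpr and TMM scaling, the groups were compared with the quasi-likelihood functions glmQLFit and glmQLFTest of edgeR 4.0.16 (R 4.3.3), without covariates. A standard error is the absolute coefficient over the root of its F statistic. Shares and ratios were compared by exact permutation. The calculations were tested on simulated data. Spans and exons come from GENCODE M21. The members and gene lists were chosen with earlier results of these data known. Named genes are all members, the 3 other subunits with the smallest adjusted p, the 5 genes most correlated with *Cacna2d1*, and up to 3 genes with the smallest adjusted p of each further list. Further genes named (among them other called genes, *Thbs4*, *Slc8a1*, and subunits that were not called) were chosen after their values were seen. Alternatives were other scalings, filters, DESeq2 1.42.0, limma-voom (limma 3.58.1), a replicate block, and leaving out each library. Shares per kilobase of the whole gene were added after the data were seen. The values of 1 called gene among the channel partners are not reported here.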

Additional observations from a re-analysis of the deposited data

How the results depend on the processing

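Across 17 alternatives, 133 of 170 log2 fold changes of members kept their direction and side of the threshold, 32 lost the call, and 2 gained it. Another 3 changed sign: *Cacna1d* (0.32) and *Cacna1h* (0.21) with pan-neuronal scaling, and *Cacna1e* (-0.083) in limma-voom with sample weights. Pan-neuronal scaling left 0 of 10 members called lower, with a median of -0.18, and 16 of all genes lower. DESeq2 called 1606 and weighted limma-voom 1995 genes lower, and both called the same 7 members, with *Cacna1h* as an eighth in the latter. The cause of these shifts was not tested. With the replicate number as a block, 7 members and 1341 of all genes were lower, and 2118 of all genes were higher. Same-numbered libraries had correlations of deviations of 0.036, 0.066, and 0.107, so the numbers were not taken to pair them. In the fits without one replicate, from 0 to 7 members were lower and from 0 to 1 higher, their median was -0.71 to -0.50, and from 0 to 1446 of all genes were lower and from 12 to 2474 higher. Without *Gfp* replicate 2, 7 members and 2029 genes were lower at an unadjusted p under 0.05, and without *Gfp* replicate 3, 8 members and 1815 genes. No share difference changed sign in 72 values, and 5 moved by over 1 SD per kilobase of the whole gene. With 3 libraries a group, exact tests cannot go below p = 0.1.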
